A study of Homo sapiens with 8 samples.

Results

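Splicing of pre-mRNA is steered by SR proteins, by heterogeneous nuclear ribonucleoproteins (hnRNPs) and by the kinases that phosphorylate SR proteins, and their mRNAs are described here in glioblastoma cells with or without TrxR1 knockout and with or without glucose. Members were the rows of the deposited table whose symbol begins with SRSF or HNRNP, plus TRA2A, TRA2B, SRRM1, SRRM2 and the CLK and SRPK kinases. The rule found 42 rows, of which 1, the pseudogene HNRNPA1P10, was dropped, so that 41 of the 13730 genes in the table were members. They comprised 11 SR protein genes (SRSF1 to SRSF11), 4 SR-related genes, 21 hnRNP genes and 5 kinase genes, and all 41 passed the filter on low values. CLK2 was not analysed here. The rule used gene names alone and no measured value, but members were chosen with earlier results of these data known.

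SR proteins bind exonic enhancer sequences through RNA recognition motifs and recruit the spliceosome through an arginine- and serine-rich domain. SRPK1 and SRPK2 phosphorylate that domain in the cytoplasm, which lets the proteins enter the nucleus, and CLK kinases phosphorylate it further in the nucleus. Many hnRNPs oppose SR proteins by binding silencer sequences, although several also promote exon inclusion. Genes of both families commonly regulate their own mRNA through exons or introns that send the transcript to nonsense-mediated decay, and CLK1 mRNA is known to be held in the nucleus with introns retained until stress or kinase inhibition releases it.

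The cells were LN229-TAZ(4SA), named in the labels after a TAZ(4SA) construct in the human glioblastoma line LN229. The 4 groups were KO cells in glucose-deprived medium, EV cells in glucose-deprived medium, KO cells in regular medium and EV cells in regular medium, with 2 libraries (a and b) in each. KO cells carry a knockout of TrxR1, the cytosolic thioredoxin reductase, and EV cells are its controls. All groups share the parental line and its construct; whether the knockout is 1 clone, and how long glucose was withheld, is not stated. Nothing in the labels says that the paired libraries of a group were grown separately; a p-value therefore reflects only how far these libraries scatter, which may be technical. Glucose-deprived columns are those headed GlcN, letters that the labels do not use and that can also stand for glucosamine, an agent the labels do not name; every deprivation value rests on that reading.

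Reads summed over the table ranged from 70083018 to 107229069 per library, so that 1 read was worth 0.00948 to 0.0143 CPM, the unit of reads scaled to library size used throughout. TXNRD1, the gene for TrxR1, measured 351 and 370 CPM in KO cells and 493 and 509 CPM in EV cells without glucose, and 245 and 249 CPM in KO cells and 261 and 263 CPM in EV cells in regular medium. Its mRNA differed little in regular medium and is no check of the knockout there. The glucose-induced genes TXNIP and ARRDC4 summed to 10.9 to 11.5 CPM in KO and 12.5 to 13.3 CPM in EV cells without glucose, and to 83.4 to 88.6 CPM in KO and 92.0 to 93.1 CPM in EV cells in regular medium. All 9 glioma and glial line markers were among the genes analysed, summing to 13177 to 16550 CPM, against 0 of 4 endothelial and 0 of 3 epithelial markers. Most of that sum was FN1 (7145 to 10542 CPM) and VIM (2897 to 3696 CPM). SOX2 had 15.1 to 56.0 CPM and SOX9 4.93 to 7.95 CPM, with the remaining markers of that list in between. Among the latter was WWTR1, the gene for TAZ (306 to 362 CPM). Its level may include reads of the TAZ(4SA) construct, so it is no independent marker of the line. Of 5 leukocyte markers only CD68 was among the genes analysed (44.3 to 54.1 CPM without glucose and 24.8 to 26.1 CPM with it). Of the neuronal markers, 3 of 4 summed to 51.8 to 54.8 CPM without glucose and 19.0 to 21.6 CPM with it. The part of these marker levels in the results was not tested. Pearson's r between libraries, over the 13057 genes that passed the filter on low values, on the log2 scale, was 0.9969 to 0.9983 within groups and 0.9578 to 0.9642 between media.

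On glucose removal, SR protein and most hnRNP genes that were called were lower and the kinase genes that were called were higher; differences between roles were not tested. In KO cells 29 of the 41 genes were called, 8 higher and 21 lower, and in EV cells 33 were called, 10 higher and 23 lower. Of all 13057 tested genes, 73.3% were called in KO cells (36.5% higher, 36.8% lower) and 76.2% in EV cells (37.5% higher, 38.7% lower), so that the total share of members called was near the background. The lower calls were 51.2% of members in KO cells and 56.1% in EV cells, above those backgrounds. The median log2 fold change of the members was -0.11 in KO cells and -0.15 in EV cells, against 0.00 and -0.01 for all tested genes. A gene was called at a limma adjusted p under 0.05, with Benjamini-Hochberg adjustment over all tested genes. These are shares of bulk libraries, in which less RNA of a gene per cell and fewer cells that contain it cannot be told apart.

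SR protein genes were called only lower, 6 of 11 in KO cells (54.5%) and 7 of 11 in EV cells (63.6%). Of all tested genes, 73.3% in KO and 76.2% in EV cells were called in either direction. The shares called lower were 36.8% and 38.7%, and those called higher 36.5% and 37.5%. The summed level of the SR protein genes was 1939 and 1955 CPM in KO libraries without glucose against 2396 and 2491 CPM in KO libraries with it, and 1878 and 1932 CPM in EV libraries without glucose against 2525 and 2530 CPM in EV libraries with it. The 21 hnRNP genes gave 4 higher and 14 lower in KO cells (85.7% called) and 4 higher and 15 lower in EV cells (90.5% called). Their sum was 7421 and 7482 CPM in KO and 7369 and 7448 CPM in EV libraries without glucose. With glucose the sum was 8913 and 9295 CPM in KO and 9379 and 9457 CPM in EV libraries. Kinase genes were called only higher, 3 of 5 in KO cells (60.0%) and 4 of 5 in EV cells (80.0%). The kinase sum was 441 and 469 CPM in KO and 427 and 431 CPM in EV libraries without glucose, against 343 and 353 CPM in KO and 343 and 346 CPM in EV libraries in regular medium. CLK1 made up most of that difference, and the other 4 kinase genes summed to 332 and 308 CPM in KO and 320.3 and 328 CPM in EV libraries without glucose, against 297 and 302 CPM in KO and 296 and 293 CPM in EV libraries with it. The sums of these 3 classes did not overlap between media, and neither did that of the SR-related genes, which was higher without glucose. The SR-related sum was 1376 and 1392 CPM in KO and 1391 and 1388 CPM in EV libraries without glucose. In regular medium it was 1366 and 1338 CPM in KO and 1306 and 1329 CPM in EV libraries. How often sums of other genes separate in this way was not counted. The absent calls, higher SR protein genes and lower kinase genes, were 0 in limma's test on the deposited values, 0 at an unadjusted p under 0.05, and 0 with limma's voom weights on the reads recovered from the table.

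**Figure D1:**
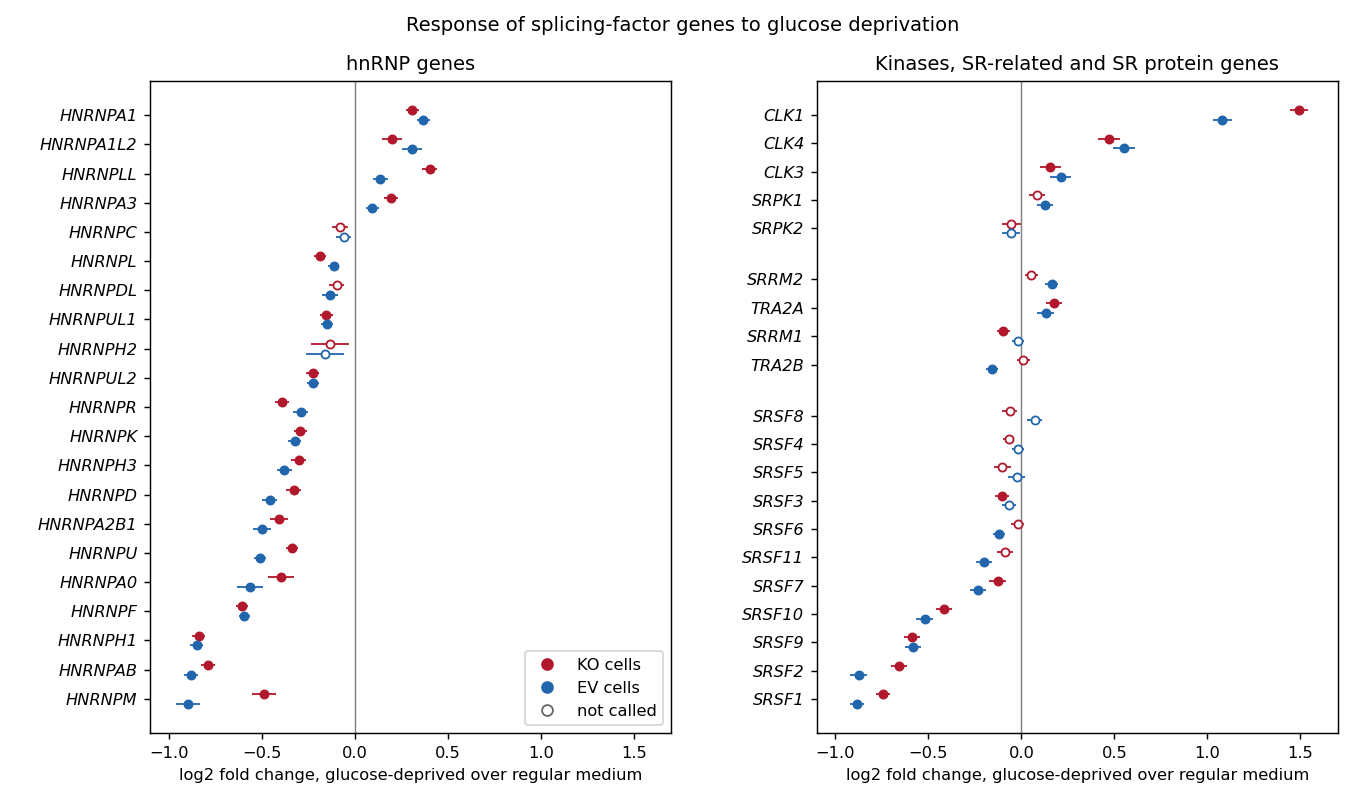
Log2 fold change of each of the 41 genes in glucose-deprived over regular medium, in KO cells (red) and EV cells (blue), with hnRNP genes on the left and kinases, SR-related and SR protein genes on the right; bars are standard errors from limma, filled points were called and open points were not. CLK1 stands apart at 1.49 in KO and 1.08 in EV cells, and SRSF1, SRSF2, HNRNPH1 and HNRNPAB lie below -0.65 in both.

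The responses in KO and EV cells come from separate libraries. Of the genes called, 27 were called in the same direction in both, which is 27 of the 29 called in KO cells and 27 of the 33 called in EV cells. Of these 8 were higher and 19 lower, and 0 were called in opposite directions. Agreement over all 13057 tested genes was not counted, so these counts cannot be read as particular to the members. Of those tested genes, 73.3% were called in KO cells and 76.2% in EV cells. SRRM1 and SRSF3 were called in KO cells alone, and HNRNPDL, SRPK1, SRRM2, SRSF6, SRSF11 and TRA2B in EV cells alone. The interaction, which tests whether the response differed between KO and EV cells, was not called for any of these 8 genes. Small changes rested on single libraries. In EV cells the calls of HNRNPA3, HNRNPDL, HNRNPL, SRPK1, SRSF6 and TRA2A were lost without 1 or more of the EV libraries (adjusted p up to 0.146), and 6 genes in place of 10 were called higher without EV glucose-deprived b or EV regular a. In KO cells those of SRRM1, SRSF3 and SRSF7 were lost without KO glucose-deprived b (up to 0.184 over the libraries left out), and also without KO regular a for SRRM1 and KO regular b for the other 2. The 6 genes called in neither were HNRNPC, HNRNPH2, SRPK2, SRSF4, SRSF5 and SRSF8.

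CLK1, the nuclear kinase that releases SR proteins from storage sites, had the largest change among the members. It measured 137 and 133 CPM in KO libraries without glucose against 45.6 and 50.7 CPM in KO libraries with it, a rise of 2.81-fold (log2 fold change 1.49, SE 0.0501, limma adjusted p = 1.87e-09). In EV cells it measured 107 and 103 CPM without glucose against 49.2 and 49.9 CPM with it, a rise of 2.11-fold (log2 1.08, SE 0.0501, limma adjusted p = 1.63e-08). The 4 glucose-deprived libraries all lay above the 4 regular ones, and the 2 KO libraries lay above the 2 EV libraries without glucose but not with it. CLK1 lies on GRCh38 at chr2:200853009-200864744, minus strand, and GENCODE release 29 gives it 15 transcripts, of which 8 are retained-intron transcripts and 2 are marked for nonsense-mediated decay. Gene-level values do not separate these transcripts from the coding ones.

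CLK4, the closest relative of CLK1 in the family (chr5:178602664-178630615, minus strand), also rose, by a smaller factor (the difference between the genes was not tested). It measured 28.4 and 26.6 CPM in KO libraries without glucose against 18.9 and 20.9 CPM with it (log2 0.47, SE 0.0585, limma adjusted p = 3.17e-05), and 30.8 and 29.7 CPM in EV libraries without glucose against 20.9 and 20.4 CPM with it (log2 0.55, limma adjusted p = 8.14e-06). Unlike CLK1, its KO libraries lay below its EV libraries without glucose, but that difference was not called (log2 -0.14, limma adjusted p = 0.129). CLK3, another member of the family, had 72.7 and 66.9 CPM in KO libraries without glucose against 66.1 and 59.4 CPM with it, and 71.9 and 72.1 CPM in EV libraries without glucose against 61.0 and 63.5 CPM with it. The groups did not overlap in either cell type, the changes were 0.15 in KO cells and 0.21 in EV cells on the log2 scale (limma adjusted p = 0.0293 and 0.00579), and leaving out a single library ended the call in KO cells without KO glucose-deprived a (0.194) or KO regular b (0.229), and in EV cells without EV regular a (0.0503).

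Of the cytoplasmic SRPK kinases, SRPK1 was called in EV cells. That call was lost without EV glucose-deprived b, EV regular a or EV regular b (adjusted p up to 0.145), and in KO cells SRPK1 was called when KO glucose-deprived b (log2 0.13, limma adjusted p = 0.0243) or KO regular b (0.12, 0.0431) was left out. SRPK1 had 158 and 148 CPM in KO libraries without glucose against 140.2 and 148 CPM with it (log2 0.08, limma adjusted p = 0.104), and 148 and 155 CPM in EV libraries without glucose against 139 and 138 CPM with it (log2 0.13, limma adjusted p = 0.0186). SRPK2 had 73.4 and 67.2 CPM in KO and 69.3 and 71.9 CPM in EV libraries without glucose, against 71.7 and 74.1 CPM in KO and 75.6 and 71.3 CPM in EV libraries with it. Its groups overlapped in both cell types, with log2 differences of -0.05 and -0.06 (limma adjusted p = 0.344 and 0.321).

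**Figure D2:**
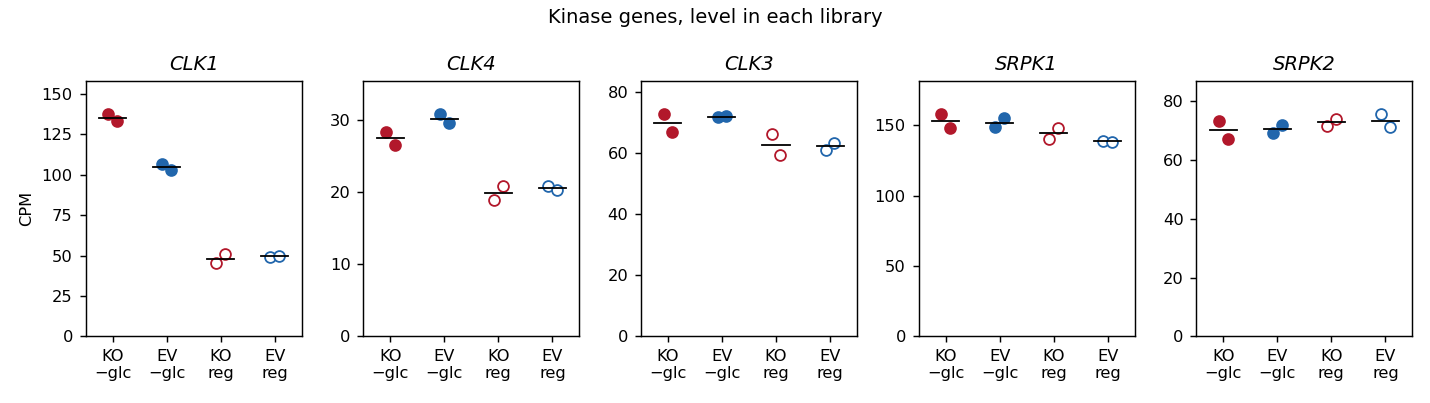
Level in CPM of the 5 kinase genes in each library, with KO and EV cells in glucose-deprived medium (filled) left of KO and EV cells in regular medium (open); lines are group means of 2 libraries. CLK1 spans 45.6 to 137 CPM, while the SRPK2 groups overlap between 67.2 and 75.6 CPM.

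Promoter sequence of CLK1 and CLK4 is shown because these kinases rose together, from 250 bases before to 50 after the start site in RefSeq (GRCh38.p14, transcribed strand), at chr2:200864609-200864908 and chr5:178627001-178627300, both minus strand. Capitals mark every match, on either strand, to a heat shock element (GAA, TTC and GAA, each 2 bases apart), a C/EBP-ATF element (TTGCATCA), a cAMP response element (TGACGTCA), an antioxidant response element (TGACNNNGC) or the E-box of MYC (CACGTG).
CLK1: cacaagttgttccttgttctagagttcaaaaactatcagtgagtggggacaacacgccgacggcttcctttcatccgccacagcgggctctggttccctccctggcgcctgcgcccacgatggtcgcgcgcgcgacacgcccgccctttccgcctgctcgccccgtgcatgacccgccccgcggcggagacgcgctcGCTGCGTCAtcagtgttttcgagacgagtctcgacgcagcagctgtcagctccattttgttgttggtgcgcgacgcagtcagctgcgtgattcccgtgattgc
CLK4: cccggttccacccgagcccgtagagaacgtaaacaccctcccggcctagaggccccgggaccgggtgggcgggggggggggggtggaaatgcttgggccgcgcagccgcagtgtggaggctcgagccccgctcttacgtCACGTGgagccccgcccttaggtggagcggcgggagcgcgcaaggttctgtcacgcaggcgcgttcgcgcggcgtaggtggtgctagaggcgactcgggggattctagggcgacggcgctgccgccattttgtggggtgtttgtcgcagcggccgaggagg
The only match in the CLK1 window was to the antioxidant response element on the opposite strand, beginning at position -53 from the start site, and the only match in the CLK4 window was an E-box at -111. Of 41 members, 38 had a promoter in the table. The antioxidant response element was found in 7 of these 38, in 15.2% of the 10461 promoters of tested genes and in 13.6% of all 27305 promoters. The E-box was found in 8, in 10.2% of those of tested genes and in 7.44% of all, and the heat shock element in 1, in 0.315% and in 0.487%. The other 2 motifs were found in 0 of the members' promoters, against 0.459% and 0.923% (C/EBP-ATF) and 3.35% and 1.98% (cAMP response). These are matches of letters and not known sites. The CLK4 window lies inside the GENCODE span of CLK4 given above, which begins on its strand at 178630615, so RefSeq and GENCODE place the start site differently.

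Among SR proteins, the largest changes were those of SRSF1 and SRSF2, the founding members of the family, which bind exonic enhancers in many transcripts. SRSF1 (chr17:58003360-58007346, minus strand) had 311 and 303 CPM in KO libraries without glucose against 499.7 and 529.6 CPM with it, and 306 and 290.0 CPM in EV libraries without glucose against 551 and 549 CPM with it. It fell to 0.597 of its regular level in KO cells and 0.541 in EV cells (log2 -0.74 and -0.89, SE 0.0388, limma adjusted p = 4.14e-08 and 1.07e-08). SRSF2 had 239 and 258 CPM in KO libraries without glucose against 399 and 384 CPM with it, and 234 and 220.0 CPM in EV libraries without glucose against 420.1 and 413 CPM with it (log2 -0.66 and -0.88, SE 0.0446, limma adjusted p = 2.92e-07 and 3.18e-08). For both genes the glucose-deprived libraries all lay below the regular ones, whichever cell they came from.

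SRSF9, a shorter relative of SRSF1, had 55.1 and 55.9 CPM in KO libraries without glucose against 80.6 and 86.4 CPM with it, and 61.7 and 59.5 CPM in EV libraries without glucose against 92.0 and 89.8 CPM with it. Its fall was alike in the 2 cell types, at 0.665 of the regular level in KO cells and 0.667 in EV cells (log2 -0.59 and -0.58, limma adjusted p = 5.02e-07 and 4.76e-07). SRSF10, which represses splicing when it loses its phosphate groups during heat shock, changed by log2 -0.42 in KO cells and -0.52 in EV cells (SE 0.0443), and SRSF7, a partner in mRNA export, by -0.13 and -0.23 (SE 0.0449). The other SR protein genes changed by at most 0.20 in size on the log2 scale. SRSF4 and SRSF5 were called in neither cell type (KO -0.07 and -0.10, EV -0.02 and -0.03), and SRSF8, an SRSF2-like gene, lay at -0.06 in KO cells and 0.07 in EV cells, neither called. SRSF2 and SRSF8, although related, thus had changes of different size, but differences between genes were not tested.

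Library preparation did not mark strand, and some of these genes share exonic bases with neighbours. The share was 56.6% of the exonic length of SRSF1 (AC015813.2, same strand), 46.2% of SRSF9 (GATC, opposite strand), 44.2% of HNRNPUL2 (a readthrough gene), 36.7% of SRSF2 (MFSD11, opposite strand), 16.3% of HNRNPH2 (a readthrough gene) and 15.6% of HNRNPU (COX20, opposite strand). How the submitters assigned such reads is not stated in the sources used here, so the values of these genes are uncertain. The promoter of SRSF1 (chr17:58007197-58007496, minus strand), shown as that of the SR protein gene that fell most in both cell types, held a match to the antioxidant response element at -150, in capitals.
SRSF1: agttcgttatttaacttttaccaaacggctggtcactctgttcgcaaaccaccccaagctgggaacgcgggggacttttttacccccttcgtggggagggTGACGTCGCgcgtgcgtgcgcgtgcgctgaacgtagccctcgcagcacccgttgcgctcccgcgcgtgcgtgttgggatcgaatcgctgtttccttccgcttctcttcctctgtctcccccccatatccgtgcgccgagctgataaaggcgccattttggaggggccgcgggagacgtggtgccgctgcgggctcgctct

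SR-related genes went different ways. TRA2A and TRA2B are paralogues that bind purine-rich exonic enhancers, and TRA2A was called higher in both cell types (log2 0.18 in KO and 0.13 in EV cells, SE 0.0435, limma adjusted p = 0.00381 and 0.019). TRA2B had 266 and 264 CPM in KO libraries without glucose against 256 and 270.0 CPM with it, and 243 and 241 CPM in EV libraries without glucose against 271 and 269 CPM with it. Its fall was called in EV cells (log2 -0.16, SE 0.0337, limma adjusted p = 0.00136) and not in KO cells (0.01, limma adjusted p = 0.802), and the difference between the 2 responses was not called (0.17, limma adjusted p = 0.0737). SRRM2, a large scaffold protein of nuclear speckles, had 844 and 869 CPM in KO libraries without glucose against 849 and 802 CPM with it (log2 0.05, limma adjusted p = 0.197), and 883 and 881 CPM in EV libraries without glucose against 779 and 796 CPM with it (log2 0.16, limma adjusted p = 0.00159). SRRM1, which activates splicing together with SRRM2, was called lower in KO cells alone (log2 -0.10, limma adjusted p = 0.0229).

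Within the hnRNP A/B genes, which bind UAG-containing silencers, directions were opposed. HNRNPA1 had 616 and 601 CPM in KO libraries without glucose against 475 and 507 CPM with it, and 639 and 637 CPM in EV libraries without glucose against 494 and 494 CPM with it. It rose 1.24-fold in KO and 1.29-fold in EV cells (log2 0.31 and 0.37, SE 0.036, limma adjusted p = 1.84e-05 and 4.21e-06). HNRNPA1L2, an intronless copy of HNRNPA1, had 21.2 and 20.6 CPM in KO and 21.0 and 21.3 CPM in EV libraries without glucose, against 17.4 and 18.9 CPM in KO and 16.8 and 17.3 CPM in EV libraries with it (log2 0.20 and 0.31, limma adjusted p = 0.00631 and 0.000383). Reads of near-identical copies may be divided between these genes, which makes both values uncertain, and the same holds for HNRNPA3 and HNRNPC, which have many processed copies.

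HNRNPA3, a close relative of HNRNPA1, had 345 and 356 CPM in KO libraries without glucose against 298 and 315 CPM with it (log2 0.20, SE 0.0355, limma adjusted p = 0.000519), and 341 and 346 CPM in EV libraries without glucose against 321 and 322 CPM with it (log2 0.10, limma adjusted p = 0.0307). HNRNPA2B1, which also sorts microRNAs and trafficked mRNAs, fell instead, with 1282 and 1245 CPM in KO and 1200.5 and 1254 CPM in EV libraries without glucose, against 1584 and 1768 CPM in KO and 1731 and 1739.5 CPM in EV libraries with it. Its log2 changes were -0.41 in KO and -0.50 in EV cells (SE 0.0482), beside -0.40 and -0.56 for HNRNPA0 (SE 0.0691), which binds AU-rich elements. The groups of each of these genes did not overlap between media.

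HNRNPAB, a close relative of HNRNPD, had 234 and 244 CPM in KO libraries without glucose against 404 and 423 CPM with it, and 213 and 222 CPM in EV libraries without glucose against 403 and 399 CPM with it. It fell to 0.579 of its regular level in KO and 0.543 in EV cells (log2 -0.79 and -0.88, SE 0.0375, limma adjusted p = 2.18e-08 and 9.07e-09). HNRNPD (AUF1, a factor in the decay of AU-rich mRNAs) changed by -0.33 in KO and -0.46 in EV cells (SE 0.0396). Its relative HNRNPDL lay at -0.10 in KO cells, which was not called, and -0.13 in EV cells, which was.

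The hnRNP F/H genes encode proteins that bind runs of G. HNRNPH1 had 323 and 315 CPM in KO libraries without glucose against 553 and 589 CPM with it, and 325 and 326 CPM in EV libraries without glucose against 585 and 589 CPM with it (log2 -0.84 and -0.85, SE 0.0359, limma adjusted p = 1.01e-08 and 8.74e-09). HNRNPF had 216 and 208.5 CPM in KO libraries without glucose against 322 and 323 CPM with it, and 217 and 217 CPM in EV libraries without glucose against 327 and 328 CPM with it (log2 -0.61 and -0.59, SE 0.0311, limma adjusted p = 3.68e-08 and 3.98e-08). These genes lost the same share of their level in KO as in EV cells to within the standard error. HNRNPH3 was also called lower in both (log2 -0.30 in KO and -0.38 in EV cells, SE 0.0399), and HNRNPH2, at 3.19 to 3.84 CPM over all libraries, was called in neither (-0.13 and -0.16, SE 0.1015).

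HNRNPM, a protein that binds GU-rich sites and is known for its part in splicing during epithelial-mesenchymal transition, lies at chr19:8444767-8489114 on the plus strand. It had 238 and 284 CPM in KO libraries without glucose against 372 and 357 CPM with it, and 228 and 227 CPM in EV libraries without glucose against 433 and 414 CPM with it. It fell to 0.713 of its regular level in KO cells and to 0.538 in EV cells (log2 -0.49 and -0.90, SE 0.0653, limma adjusted p = 5.41e-05 and 4.53e-07). The 2 KO libraries without glucose lay further apart than those of any other group.

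HNRNPU, a scaffold attachment factor of chromatin, changed by -0.34 in KO and -0.51 in EV cells (SE 0.0328), and its relatives HNRNPUL1 and HNRNPUL2 by -0.15 and -0.23 in KO cells and -0.15 and -0.22 in EV cells. HNRNPK, which binds C-rich sequence, changed by -0.29 in KO and -0.32 in EV cells, and HNRNPR, a relative of SYNCRIP, by -0.39 and -0.29. HNRNPC, which covers U-rich tracts, was called in neither (-0.08 and -0.06).

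HNRNPL and HNRNPLL are paralogues that bind CA repeats, and HNRNPLL is known for switching CD45 isoforms in lymphocytes. HNRNPL was called lower in both cell types (log2 -0.19 in KO and -0.11 in EV cells, SE 0.0313). HNRNPLL (chr2:38561978-38603586, minus strand) was called higher, with 53.7 and 56.1 CPM in KO libraries without glucose against 41.4 and 41.7 CPM with it, and 50.9 and 51.6 CPM in EV libraries without glucose against 47.3 and 46.0 CPM with it (log2 0.40 and 0.14, SE 0.0402, limma adjusted p = 5.68e-06 and 0.00984). In EV cells the call was lost without EV glucose-deprived b or EV regular b (adjusted p up to 0.0919).

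Promoters of HNRNPM, HNRNPLL and HNRNPA2B1 are shown on the same terms as those above, the first pair because their response to glucose removal was called different between KO and EV cells, and the third because it held the sole heat shock element among the members. The windows are chr19:8444725-8445024 on the plus strand and chr2:38602879-38603178 and chr7:26200697-26200996 on the minus strand. Those of HNRNPLL and HNRNPA2B1 lie inside the GENCODE spans of these genes, which begin on their strand at 38603586 and 26201529.
HNRNPM: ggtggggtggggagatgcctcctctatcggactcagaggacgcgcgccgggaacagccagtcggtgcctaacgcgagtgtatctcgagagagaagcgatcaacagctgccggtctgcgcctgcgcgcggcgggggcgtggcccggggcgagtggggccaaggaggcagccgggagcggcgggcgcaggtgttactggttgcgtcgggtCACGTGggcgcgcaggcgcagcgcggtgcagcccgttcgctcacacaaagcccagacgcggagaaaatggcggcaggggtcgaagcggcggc
HNRNPLL: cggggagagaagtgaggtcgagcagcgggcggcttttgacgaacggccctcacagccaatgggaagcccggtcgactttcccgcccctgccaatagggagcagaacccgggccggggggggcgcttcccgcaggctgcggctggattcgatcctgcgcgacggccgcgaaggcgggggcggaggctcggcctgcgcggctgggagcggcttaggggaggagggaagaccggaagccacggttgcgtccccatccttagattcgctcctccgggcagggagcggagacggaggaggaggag
HNRNPA2B1: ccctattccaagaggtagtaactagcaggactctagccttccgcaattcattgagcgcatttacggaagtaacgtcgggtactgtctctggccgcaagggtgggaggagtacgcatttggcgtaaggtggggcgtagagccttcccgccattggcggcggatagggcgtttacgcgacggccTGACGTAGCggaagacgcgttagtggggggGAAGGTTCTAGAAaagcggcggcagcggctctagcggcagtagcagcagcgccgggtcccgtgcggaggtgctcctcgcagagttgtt
HNRNPM held an E-box at -42, HNRNPLL held none of the 5 motifs, and HNRNPA2B1 held an antioxidant response element at -68 and the heat shock element at -38. These 6 windows held 29 to 39 CpG in 300 bases, beside a median of 30.5 for the 38 members with a promoter and 26.0 for the promoters of 10461 tested genes.

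Knockout alone gave few calls among these mRNAs, which with 2 libraries in each group does not show that the others were unchanged. In regular medium 1 of 41 members (2.44%) was called between KO and EV cells, against 7.25% of all tested genes (3.87% higher, 3.38% lower). The gene was HNRNPLL, lower in KO cells (41.4 and 41.7 CPM in KO libraries against 47.3 and 46.0 CPM in EV libraries; log2 -0.17, SE 0.0402, limma adjusted p = 0.034), and the call was lost without any library other than the 2 KO glucose-deprived ones (up to 0.299), whose absence gave 3 calls each. The 0 genes called higher compare with 1 higher at an unadjusted p under 0.05 and 0 with voom weights. At that unadjusted p 6 members were lower, and 3107 of all 13057 tested genes passed it in either direction. Members had a median log2 difference of -0.04, against 0.00 for all genes.

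Without glucose, 4 of 41 members (9.76%) were called between KO and EV cells, 3 higher and 1 lower, against 19.6% of all tested genes (9.04% higher, 10.6% lower). CLK1 was higher, at 137 and 133 CPM in KO libraries against 107 and 103 CPM in EV libraries (log2 0.37, SE 0.0501, limma adjusted p = 0.000946), and stayed called with any single library left out (largest adjusted p 0.0196). SRSF8 was lower, at 31.1 and 29.7 CPM in KO libraries against 35.6 and 35.6 CPM in EV libraries (log2 -0.23, SE 0.0419, limma adjusted p = 0.00493, at most 0.0487 with a library left out). TRA2B was higher, at 266 and 264 CPM in KO libraries against 243 and 241 CPM in EV libraries (log2 0.13, limma adjusted p = 0.0221), and HNRNPAB at 234 and 244 CPM in KO libraries against 213 and 222 CPM in EV libraries (log2 0.14, limma adjusted p = 0.0296). These last 2 calls were lost without any EV library (TRA2B up to 0.143, HNRNPAB up to 0.212), and that of HNRNPAB also without KO glucose-deprived b (0.12). The count was 8 without KO glucose-deprived a, 7 without either KO regular library and 2 without any EV library.

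The response to glucose removal differed between KO and EV cells for 3 of 41 members (7.32%), all with a positive difference, against 4.31% of all tested genes (2.31% positive, 2.01% negative). The difference was 0.41 for CLK1 (SE 0.0709, limma adjusted p = 0.0109), 0.41 for HNRNPM (SE 0.0923, limma adjusted p = 0.0379) and 0.27 for HNRNPLL (SE 0.0568, limma adjusted p = 0.0304). The 3 genes took different shapes across the groups. CLK1 levels of KO and EV cells overlapped in regular medium and separated without glucose. For HNRNPM the difference of KO over EV cells was 0.19 without glucose (limma adjusted p = 0.0648) and -0.22 with it (limma adjusted p = 0.0743), neither called by itself. Both HNRNPM values turned on single libraries, the first being 0.32 (limma adjusted p = 0.000861) with KO glucose-deprived a left out, 0.07 (0.318) with KO glucose-deprived b left out, and the second keeping its size but being called when either of these libraries was left out (0.00385 and 0.00373). For HNRNPLL it was 0.10 without glucose, not called, and -0.17 with it, called. The CLK1 call was lost without EV glucose-deprived b (adjusted p = 0.0717), EV regular a (0.0574) or EV regular b (0.0599), the HNRNPM call without any library other than the 2 KO glucose-deprived ones (up to 0.171), and the HNRNPLL call without any library other than KO glucose-deprived a and KO regular b (up to 0.183). The count was 6 without KO glucose-deprived a, 1 without EV glucose-deprived a or KO regular a, and 0 without EV glucose-deprived b, EV regular a or EV regular b. These contrasts share libraries with those above and are not independent of them. No member was called with a negative difference (0 calls, also 0 with voom weights, and 1 at an unadjusted p under 0.05).

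**Figure D3:**
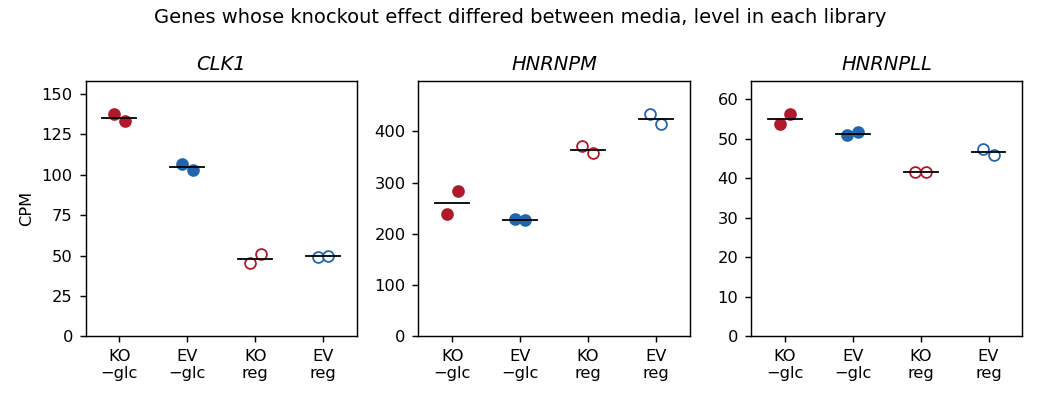
Level in CPM of CLK1, HNRNPM and HNRNPLL in each library, with KO and EV cells in glucose-deprived medium (filled) left of KO and EV cells in regular medium (open); lines are means of 2 libraries. CLK1 separates without glucose, and the order of KO and EV turns between media for HNRNPM and HNRNPLL.

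Other genes of the splicing machinery gave a setting for the module, from lists written out by function. Of 11 tested hnRNP family genes under other symbols, 1 was called higher and 8 lower on glucose removal in KO cells, and likewise 1 and 8 in EV cells, with medians of -0.30 and -0.45. Among the genes called lower in both were TARDBP (log2 -0.73 in KO and -0.73 in EV cells), a repressor of cryptic exons, and SYNCRIP (-0.65 and -0.69), a relative of HNRNPR. Of 42 spliceosome core genes, 6 were called higher and 25 lower in KO cells and 10 higher and 25 lower in EV cells (medians -0.26 and -0.24), among them SNRPG of the snRNP ring (-0.69 and -0.70) and the helicase DHX15 (-0.51 and -0.64).

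The 45 other regulators of alternative splicing gave 14 higher and 19 lower calls in KO cells and 15 higher and 22 lower in EV cells, closer to the background of all genes, with medians of -0.08 and -0.09. SFPQ, a paraspeckle protein, had 266 and 278 CPM in KO and 243 and 253 CPM in EV libraries without glucose, against 596 and 621 CPM in KO and 656 and 643 CPM in EV libraries with it (log2 -1.16 and -1.39). MBNL2, a regulator of developmental splicing, went the other way (0.97 in KO and 0.83 in EV cells). The largest rise of the list in EV cells was that of ESRP1 (log2 3.72), a gene of low level. ESRP1 had 6.88 and 5.97 CPM in EV libraries without glucose against 0.354 and 0.607 CPM with it. In KO libraries these were 6.19 and 5.85 CPM against 0.518 and 0.547 CPM. Of 13 other kinases and import receptors, 4 were called higher and 6 lower in KO cells and 4 higher and 5 lower in EV cells, including DYRK2 (-0.80 and -0.83) and CDK12 (-0.70 and -0.54). In regular medium, 2 genes of this list were called higher in KO than in EV cells and 0 lower, 15.4% of the 13, against 7.25% of all tested genes. They were TNPO1 (log2 0.17, limma adjusted p = 0.0148) and TNPO3 (log2 0.14, limma adjusted p = 0.0333). Both calls were lost without EV regular a and without EV regular b. Between KO and EV cells without glucose, 1 gene of this list was called higher and 1 lower, 15.4% of the 13, below the share of all genes. TNPO1, an import receptor of hnRNP A1, was higher (349 and 336 CPM in KO against 266 and 270.2 CPM in EV libraries; log2 0.35, limma adjusted p = 0.000111), and its relative TNPO2 was lower (106 and 105 CPM in KO against 117 and 116 CPM in EV libraries; log2 -0.15, limma adjusted p = 0.0155, lost when KO glucose-deprived b or either EV glucose-deprived library was left out).

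Of 16 genes of nonsense-mediated decay, 3 were called higher and 11 lower in KO cells and 2 higher and 11 lower in EV cells, with medians of -0.22 and -0.24. UPF1, its central helicase, changed by -0.80 in KO and -0.81 in EV cells, and CASC3 of the exon junction complex by 0.40 and 0.51. Gene-level values do not measure the transcripts that this pathway acts on, and its part in the members' changes was not tested. GENCODE marks at least 1 transcript for nonsense-mediated decay in 33 of the 41 members (80.5%), against 43.1% of the 12035 tested protein-coding genes, and a retained-intron transcript in 31 (75.6%), against 57.5%. Members also carry more annotated transcripts, with a median of 12 against 8, and the part of that number in these shares was not tested. The median change on glucose removal was -0.10 in KO and -0.12 in EV cells for the 33 members with a transcript marked for nonsense-mediated decay, and -0.26 in KO and -0.30 in EV cells for the 8 without. Those 8 were all hnRNP genes, a role whose median over its 21 genes was -0.29 in KO and -0.29 in EV cells. The split therefore also divides roles, and the part of such transcripts in it was not tested.

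**Figure D4:**
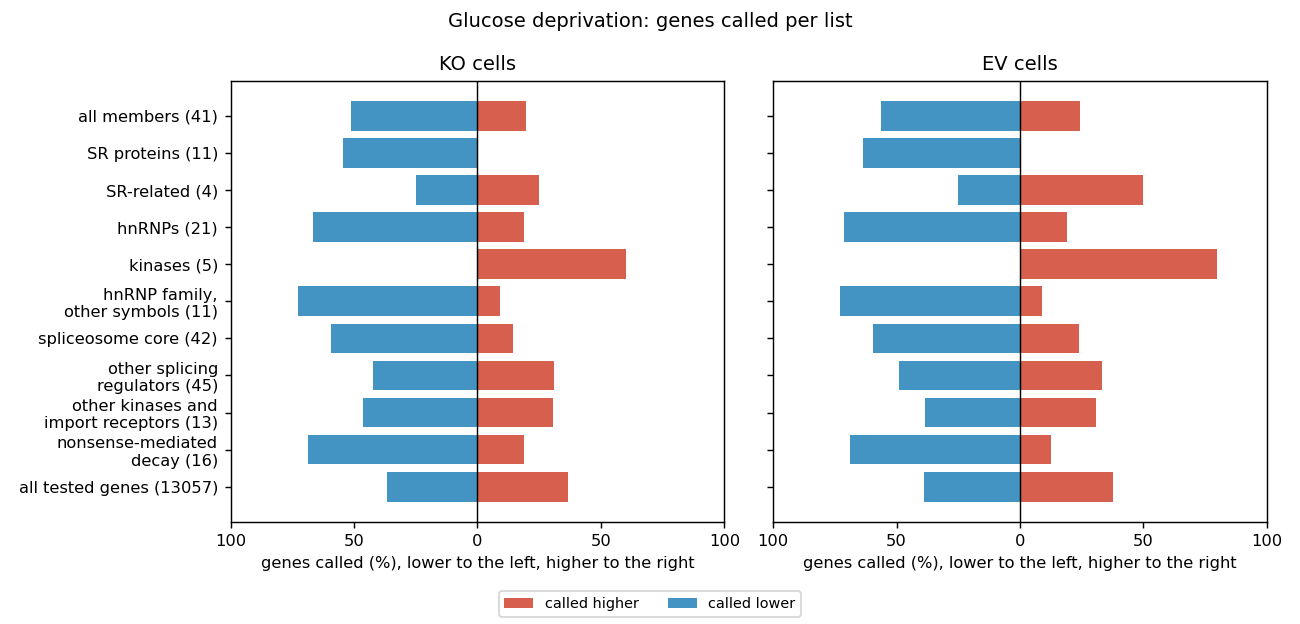
Percent of genes called lower (blue, left) and higher (red, right) on glucose removal in KO cells and in EV cells, for the module, its 4 roles, 5 other splicing lists and all tested genes; numbers in brackets are genes tested. SR proteins show no higher calls and kinases no lower calls, against a near-even split of all 13057 genes.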

How the data were processed

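The authors deposited log2 CPM values for 13730 genes in 8 libraries, 82 of them without a symbol. The tools HISAT2 and edgeR and the build GRCh38 are named, without versions, per the submitters' processing notes, and the counting tool and annotation are not given in the sources used here. Per the labels' protocols, total RNA went through SMART-Seq mRNA and Nextera XT kits. The log2 scale was read from the deposited values, which are whole reads scaled to library size plus an offset of 0.023 CPM (100% of values whole within a tolerance of 0.05). Printed CPM values have that offset removed. Column headers name groups without replicate numbers, so libraries are called a and b by column order, and GlcN was read as the glucose-deprived condition.

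Tests covered the 13057 genes whose average log2 CPM reached 0 (673 did not), in limma 3.58.1 (R 4.3.3), as 1 model of 4 groups with a variance trend and 4 residual degrees of freedom. The knockout was tested within each medium, glucose removal within KO and within EV cells, and the interaction by itself. All p-values are two-sided, with Benjamini-Hochberg adjustment per contrast over those genes. The steps were tested on simulated data for the knockout and glucose-removal contrasts, and not for the interaction. Far fewer genes changed in those data than were called here on glucose removal. Alternatives were other low-value filters, a pseudocount of 1 CPM, median-of-ratios scaling, no variance trend, leaving out each library, and, chosen after seeing the data, voom weights.

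Members and lists were chosen with earlier results of these data known. Values per library are given for kinases, genes called in the interaction and the 6 largest rises and falls per contrast, and for a few related members. From each other list up to 3 called genes per contrast, by smallest adjusted p, could be named. Of the table's IDs, 13646 were in RefSeq. Gene coordinates are from GENCODE release 29 on GRCh38, promoters from RefSeq on GRCh38.p14.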

Additional observations from a re-analysis of the deposited data

Results flagged for a closer look

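The knockout effect differed between glucose-deprived and regular medium, by limma's interaction term, for 3 members. The KO minus EV difference was larger without glucose by 0.41 for CLK1, by 0.41 for HNRNPM and by 0.27 for HNRNPLL, all on the log2 scale. With 2 libraries in each group, each of the 3 calls depended on single libraries, as the report gives.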

How the results depend on the processing

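Without the variance trend, 0 members were called between KO and EV cells in regular medium (0 of them lower), 2 without glucose (1 of them higher), and 0 in the interaction (0 higher). With the stricter filter (average log2 CPM of 2), 2 were lower in KO than in EV cells without glucose. Leaving out a library gave, for KO against EV in regular medium, 0 to 3 called (0 to 3 lower), and without glucose 2 to 8 called (1 to 5 higher, 1 to 3 lower). It gave 6 to 10 higher for deprivation in EV cells, and 0 to 6 in the interaction (0 to 6 higher). Members called under all alternatives numbered 25 of 29 for deprivation in KO cells, 25 of 33 in EV cells, 2 of 4 between KO and EV cells without glucose, 0 of 1 in regular medium and 0 of 3 in the interaction. For the 41 members, voom weights gave the same counts as those reported. For the other lists, 3 counts on glucose removal moved by 1: spliceosome core in EV cells (9 higher), other kinases and import receptors in KO cells (5 lower) and other regulators in KO cells (20 lower). Kinase differences that were not called changed sign when a library was left out: in KO against EV in regular medium CLK1 (-0.1208 to 0.0332), CLK3 (-0.0657 to 0.0883), CLK4 (-0.1234 to 0.0174) and SRPK2 (-0.0524 to 0.032). Without glucose these were CLK3 (-0.105 to 0.015), SRPK1 (-0.0372 to 0.0571) and SRPK2 (-0.0721 to 0.0562), for deprivation in KO cells SRPK2 (-0.1187 to 0.0096), and in the interaction CLK3 (-0.1333 to 0.0207), SRPK1 (-0.0929 to 0.0014) and SRPK2 (-0.0619 to 0.0664, and -0.0069 under median-of-ratios scaling). The cause was not tested. No paired analysis was possible because the column headers carry no replicate numbers. The planned negative binomial tests on recovered reads were not run. With 1 library left in a group, that library is assumed to vary like the others.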
